A study of Mus musculus with 4 samples.

Results

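The PI3K, AKT and mTOR regulators are 9 genes that carry, oppose or read out the signal that runs from phosphoinositide 3-kinase (PI3K) to the kinases AKT and mTOR: Pik3ip1, Pik3cd, Pik3r1, Inpp5d, Akt1, Foxo3, Tsc1, Rictor and Rptor. They were chosen by name as regulators of this pathway, with earlier results of these data known, and all 9 were found among the 16142 genes of the deposited expression table. RNA was sequenced from splenic CD4+ T cells of mice, with 2 libraries of WT cells and 2 of R111A cells. WT cells came from wild-type B6 mice. R111A cells came from mice of C57BL/6 background with the alleles Cd4CreERT2 and LSL-R111A fl/fl, which express a form of Regnase-1 that the protease MALT1 does not cleave. Tamoxifen at 75 mg/kg was given intraperitoneally for 5 days. The labels carry this for all 4 libraries, in wording that can also be read as R111A mice alone, and in another experiment of the study WT mice were treated as well. All cells were FACS sorted and then activated through CD3 (antibody at 5 µg/mL) and CD28 (antibody at 1 µg/mL) for 12 h, so none of the 4 libraries shows resting cells. The mutant was driven by the CAG promoter from the Rosa26 locus, together with EGFP, once Cre acting in Cd4-expressing cells had removed a stop cassette. Excess Regnase-1, the mutation itself, EGFP and Cre all differ between the groups and cannot be told apart. For mice with a GFP reporter, the study also gated on GFP before sorting, a step without a counterpart in B6 cells. In another of its experiments, R111A T cells without CD25 survived activation through CD3 and CD28 less well than WT cells. The part of the GFP gate or of cell death in these values was not tested. The study's animals were of both sexes and 6 to 12 weeks old unless it states otherwise. The labels do not say that each library is a separate mouse, so p-values measure only the spread between these samples.

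PI3K is recruited by the T cell receptor and CD28 and makes the membrane lipid PIP3, which brings AKT to the membrane. AKT then phosphorylates FOXO transcription factors, which leave the nucleus, and it relieves the brake that the TSC complex puts on the small GTPase RHEB, an activator of mTOR complex 1. In T cells the pathway supports growth and division after activation, and FOXO factors keep up the homing and survival genes of resting cells. Regnase-1 is a ribonuclease that cuts mRNAs at stem-loops in their 3'UTRs.

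Values are in FPKM, a read number scaled by gene length and library size, and the read number behind a value is not known. The sum over all genes was 801475 for WT replicate 1, 836143 for WT replicate 2, 1053551 for R111A replicate 1 and 1012215 for R111A replicate 2. Zc3h12a, the gene of Regnase-1, was at 17.0 and 15.7 FPKM in WT against 196 and 131 FPKM in R111A. Both R111A libraries lay above both WT libraries, as their labels say, with a log2 fold change of 3.22 (standard error, SE, 0.19, adjusted p = 9.2e-06 in limma), although the values do not separate the transgene from the endogenous gene. Fold changes throughout are R111A minus WT on the scale of log2(FPKM + 1), which understates the change of low genes, and they were tested with limma for the 9831 genes whose mean reached 1 FPKM. A gene passed the test with an adjusted p under 0.05, and a 2-fold change was the second threshold. With 2 libraries a group, the smallest two-sided p of an exact permutation test is 0.333, and the adjusted p-values therefore draw on the spread shared across genes.

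The sorted cells expressed T cell genes in every library. The 8 T cell markers summed to 2178.6 and 2181.7 FPKM in WT and to 1921.8 and 1723.0 FPKM in R111A, with Cd3g the most abundant, 1 marker higher and 4 lower. For this and the other marker counts, the shares over all genes tested were 21.2% higher and 32.1% lower. Cd4 itself was at 158 and 131 FPKM in WT against 70.7 and 51.4 FPKM in R111A, while Cd8a was at most 0.200 FPKM. The 2 CD8 T cell markers summed to 7.31 and 6.76 FPKM in WT and to 3.88 and 4.46 FPKM in R111A, nearly all of it Cd8b1, which was lower. Of 4 Treg markers, 2 were lower and none higher, with sums of 195 and 194 FPKM in WT and 141 and 147 FPKM in R111A, led by Il2ra. Foxp3, the factor that defines Tregs, was at 11.3 and 8.78 FPKM in WT against 2.86 and 1.86 FPKM in R111A. Of 8 markers of activated T cells, 3 were higher and 4 lower, with sums of 1796.5 and 1723.3 FPKM in WT and 2330.6 and 2190.2 FPKM in R111A, led by Irf4 in WT and by Nr4a1 in R111A. In bulk RNA of this kind, fewer cells of a type and less RNA per cell cannot be told apart.

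Summed markers of other cells were low, and higher in R111A. NK cell markers summed to 1.93 and 1.22 FPKM in WT and to 19.4 and 18.5 FPKM in R111A, with Eomes the most abundant in WT and Klrd1 in R111A. The 10 myeloid markers summed to 5.21 and 2.13 FPKM in WT and to 17.9 and 12.8 FPKM in R111A, with Tyrobp the most abundant in WT and Cd68 in R111A, and S100a9 at 0 in all libraries. The 8 B cell markers summed to 2.95 and 2.14 FPKM in WT and to 5.35 and 4.60 FPKM in R111A, with Fcer2a the most abundant in WT and Cd79a in R111A. Erythroid markers summed to 0.660 and 0.700 FPKM in WT and to 12.9 and 13.0 FPKM in R111A, with Hba-a1 the most abundant of 7 in both groups, while Hba-a2, Hbb-bs and Slc4a1 were at 0 throughout. Both NK cell and both B cell markers that were tested, the 1 erythroid marker and 1 of 3 myeloid markers reached the filter only through the R111A libraries, which fixes their direction, so no count of passed genes is given for these lists. The part of these cells in the values of the 9 genes was not tested.

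Of the 9 regulators, 3 were higher (Pik3ip1, Rictor and Foxo3), 2 were lower (Pik3cd and Akt1) and 4 did not pass the test (Pik3r1, Inpp5d, Tsc1 and Rptor). Among all genes tested, 21.2% passed as higher, 32.1% as lower and 53.3% in either direction, so the share of the 9 that passed, 55.6%, was close to that of the whole table. With a 2-fold change as well, 1 gene was higher (Pik3ip1) and 1 was lower (Akt1), against 8.52% and 8.34% of all genes. The WT and R111A libraries did not overlap in FPKM for 7 of the 9 genes, against 78.3% of all genes tested. The median log2 fold change of the 9 was 0.12, against -0.12 for all genes tested. After rescaling to TPM these medians were -0.18 and -0.42. All 9 reached a mean of 1 FPKM in both groups, whereas 354 of the genes tested did so only in R111A and 177 only in WT.

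**Figure D1:**
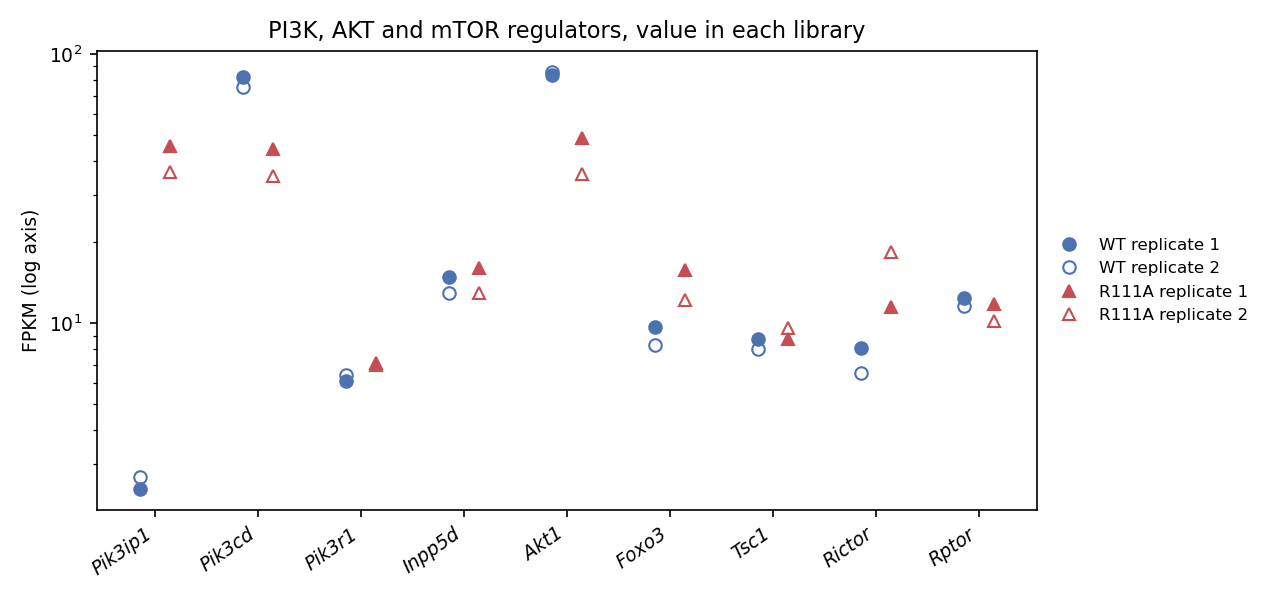
FPKM (log axis) of the 9 regulators in each library, with circles for the 2 WT and triangles for the 2 R111A libraries, open symbols marking replicate 2. Pik3ip1 went from the lowest place in WT, at 2.42 and 2.69 FPKM, to the level of Akt1 and Pik3cd in R111A, at 45.6 and 36.3 FPKM.

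The order of the levels differed between the groups. In WT cells Akt1 stood highest with a mean of 84.8 FPKM, then Pik3cd with 78.6 FPKM, and far below them Inpp5d with 13.9, Rptor with 12.0, Foxo3 with 8.98, Tsc1 with 8.38, Rictor with 7.30, Pik3r1 with 6.25 and Pik3ip1 with 2.55 FPKM. Of these neighbours, Foxo3 and Tsc1 overlapped between libraries, as did Tsc1 and Rictor, and the others did not. In R111A cells Akt1 with a mean of 42.3 FPKM, Pik3ip1 with 41.0 FPKM and Pik3cd with 39.9 FPKM overlapped with each other, so the inhibitor stood level with the kinase subunit. Rictor, Inpp5d and Foxo3 followed at 14.9, 14.5 and 14.0 FPKM and overlapped too, and then came Rptor with 11.0, Tsc1 with 9.20 and Pik3r1 with 7.05 FPKM, which did not overlap with their neighbours. The R111A replicates lay further apart than the WT replicates over the genes tested, with a median absolute log2 gap of 0.215 against 0.0912.

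Pik3ip1 (NCBI gene 216505, chr11:3319241-3342971 of GRCm38.p6) encodes a membrane protein that binds the catalytic subunit of PI3K and inhibits it. It was at 2.42 and 2.69 FPKM in WT against 45.6 and 36.3 FPKM in R111A. Both WT libraries were low and both R111A libraries high, with a ratio of means of 16.0. The log2 fold change was 3.55 (SE 0.16, 95% interval 3.19 to 3.91, adjusted p = 3.4e-06 in limma), and 99.9% of all genes tested had a smaller one. Its level stood above 12.6% of the genes tested in WT and above 77.8% of them in R111A. It stayed past both thresholds in all 14 alternative settings, with log2 fold changes from 2.60 to 3.94. No other gene stands in the list of PI3K inhibitors.

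Since Pik3ip1 is a known FOXO target and changed most of the 9, its promoter is shown. The table of RefSeq promoters (GRCm38.p6) holds 1 window of 300 bases for it, chr11:3330481-3330780 on the plus strand, from 250 bases before a transcript start to the first 50 bases of the transcript, which are in capitals. That start lies inside the interval given for the gene, and no other start was searched.
Pik3ip1: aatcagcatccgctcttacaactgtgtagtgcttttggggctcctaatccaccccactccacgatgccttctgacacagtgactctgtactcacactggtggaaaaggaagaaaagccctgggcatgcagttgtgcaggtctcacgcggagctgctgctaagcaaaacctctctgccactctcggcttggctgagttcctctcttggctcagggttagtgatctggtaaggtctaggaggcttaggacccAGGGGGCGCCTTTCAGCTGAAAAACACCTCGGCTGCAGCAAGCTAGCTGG
Neither the FOXO motif GTAAACA nor the E-box CACGTG, searched on both strands, is in this window. All 9 genes had at least 1 window, 13 in all, and the FOXO motif was in 1 of them, a window of Akt1, and the E-box in 0. Of all 32851 promoter windows, 3.65% hold the FOXO motif and 7.15% the E-box, and of the 10184 windows of genes tested, 2.55% and 10.5% do.

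Pik3cd (NCBI gene 18707, chr4:149649168-149702566) encodes p110 delta, the main catalytic subunit of PI3K in lymphocytes. It was at 81.9 and 75.2 FPKM in WT against 44.5 and 35.2 FPKM in R111A. Both R111A libraries lay below both WT libraries, at a ratio of 0.507. The log2 fold change was -0.97 (SE 0.15, 95% interval -1.31 to -0.63, adjusted p = 9.0e-04), just short of 2-fold, and it passed the test in all 14 alternatives and 2-fold in 3 of them. Pik3r1 (NCBI gene 18708, chr13:101680761-101768217) encodes the regulatory subunits p85 alpha, p55 alpha and p50 alpha, which hold the catalytic subunits stable and inactive until a receptor is bound. It was at 6.09 and 6.40 FPKM in WT against 6.97 and 7.13 FPKM in R111A. The R111A libraries were slightly higher without overlap, but the log2 fold change of 0.15 (SE 0.14, 95% interval -0.16 to 0.47) did not pass the test (adjusted p = 0.37) and was -0.14 when libraries were rescaled to TPM.

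Of the other class I subunits tested, 2 were lower and 3 did not pass. Pik3r2, the p85 beta regulatory subunit, was at 6.18 and 6.42 FPKM in WT against 2.97 and 2.0 FPKM in R111A, lower in both R111A libraries by a log2 fold change of -1.08 (SE 0.17, adjusted p = 9.2e-04). Pik3cb, the beta catalytic subunit, was at 2.88 and 2.49 FPKM in WT against 1.74 and 1.56 FPKM in R111A (log2 fold change -0.47, adjusted p = 0.021). That call was lost with median-of-ratios factors (adjusted p = 0.051), without WT replicate 1 (0.21) and without WT replicate 2 (0.070). Pik3ca, Pik3cg and Pik3r5 had log2 fold changes of -0.10, 0.00 and 0.20 and did not pass, although Pik3ca passed as lower after rescaling to TPM (adjusted p = 0.044) and Pik3r5 as higher without R111A replicate 2 (adjusted p = 0.030). Pik3r3 reached at most 0.970 FPKM and Pik3r6 at most 0.04 FPKM, too low to be tested. Of the 7 class I subunits tested, 3 were lower (1 to 4 in the alternatives) and 0 higher (0 to 1), and the median log2 fold change was -0.10, near that of all genes. Among 3 tested genes of the class II and III enzymes, 1 was lower, a call lost in 6 of 14 alternatives.

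**Figure D2:**
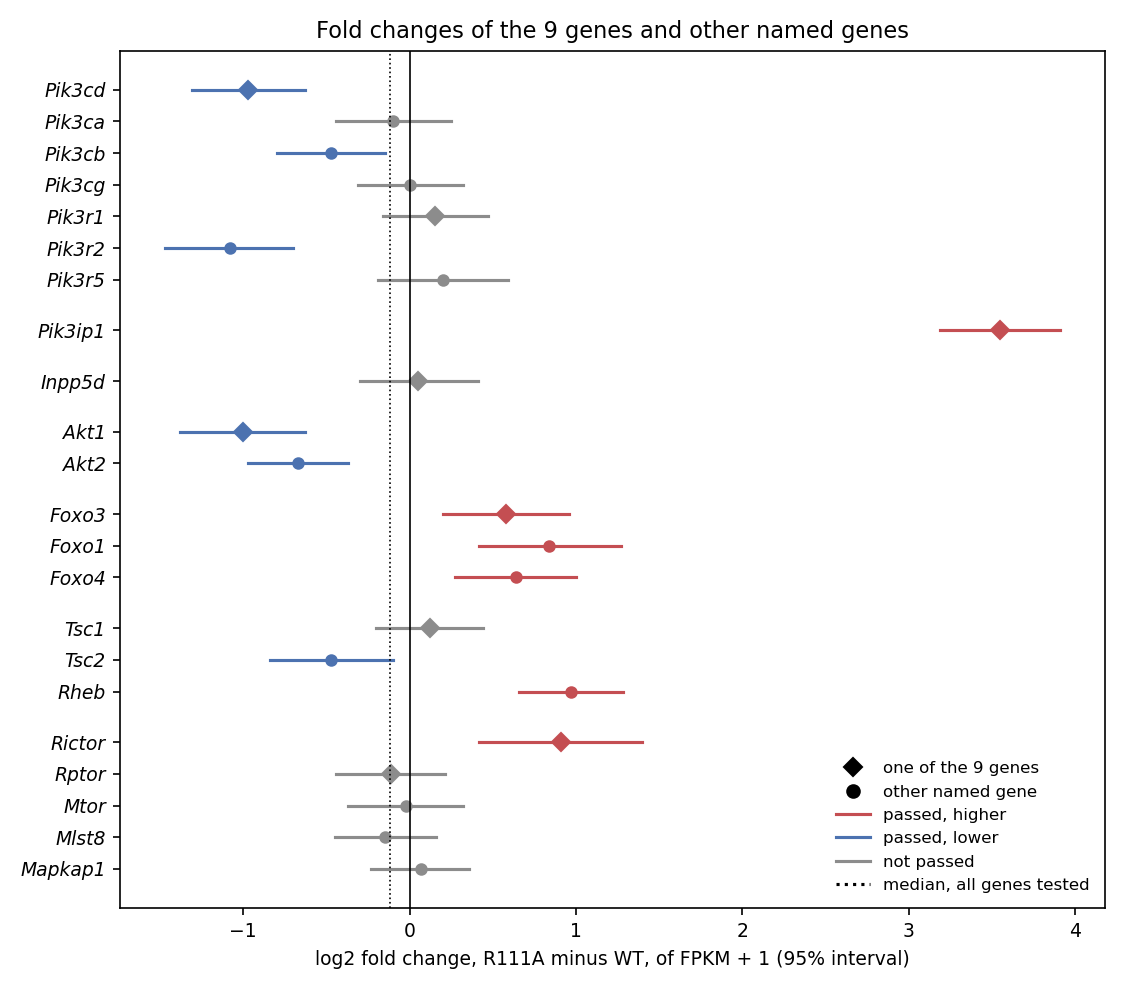
Log2 fold change, R111A minus WT, with the 95% interval from limma for the 9 regulators (diamonds) and for named paralogs and partners (circles), 2 libraries a group. Red passed the test as higher, blue as lower and grey did not pass, and the dotted line marks the median of all genes tested at -0.12. Pik3ip1 stands apart at 3.55, and Akt1 and Akt2 lie below 0, in each scaling tried.

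Upstream of the enzyme, 5 of 9 genes listed as receptors and adaptors that recruit PI3K were tested. Of these, 3 were higher (2 to 3 in the alternatives) and 1 lower (0 to 2, moving in 8 of 14), with a median log2 fold change of 0.56. The list also holds Cblb, whose product is a ubiquitin ligase that restrains this recruitment. Cblb was 1 of the 3 higher genes, and its own log2 fold change of 0.56 is the median. The count is therefore not one of recruiters alone. Trat1, an adaptor of the T cell receptor complex with a PI3K binding motif, was at 5.11 and 4.70 FPKM in WT against 20.5 and 28.4 FPKM in R111A. Both R111A libraries were far above the WT libraries, with a log2 fold change of 2.09 (SE 0.18, adjusted p = 3.8e-05). Cd28, whose own ligation was part of the stimulus, was at 115 and 107 FPKM in WT against 70.0 and 101 FPKM in R111A. It was lower in both R111A libraries, but these lay apart from each other and the log2 fold change of -0.39 did not pass (SE 0.18, adjusted p = 0.092), although it did after rescaling to TPM (adjusted p = 0.0034), with the replicate block (0.025) and without R111A replicate 2 (0.0032). Cd28 and Cblb are outside the rule for the genes named. Cd28 was singled out for the stimulus and Cblb for its opposing role, both after their values were seen.

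Inpp5d (NCBI gene 16331, chr1:87620312-87720510) encodes SHIP1, a phosphatase of blood cells that removes the 5-phosphate of PIP3. It was at 14.8 and 13.0 FPKM in WT against 16.1 and 12.9 FPKM in R111A. The groups overlapped, with R111A replicate 2 just under both WT libraries. Its log2 fold change was 0.05 (SE 0.16, 95% interval -0.30 to 0.41, adjusted p = 0.79), and it fell to -0.26 after rescaling to TPM, to -0.03 without WT replicate 2 and to -0.09 without R111A replicate 1. Of 7 phosphatases of 3-phosphoinositides tested, 1 was higher, 1 lower and 5 did not pass, with a median of 0.05. Both counts ranged from 0 to 2 in the alternatives and were 0 without either WT library. The interval for Inpp5d leaves room for a change of up to 0.41 in log2, so a small difference was not detectable with these libraries.

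Akt1 (NCBI gene 11651, chr12:112653821-112674884) encodes an AKT kinase and had the highest level of the 9 genes in WT. It was at 83.7 and 86.0 FPKM in WT against 48.9 and 35.7 FPKM in R111A. The WT libraries were nearly level, the R111A libraries were lower and further apart, and the groups did not overlap. The log2 fold change was -1.0 (SE 0.16, 95% interval -1.38 to -0.63, adjusted p = 0.0012), and it passed the test in all 14 alternatives and 2-fold in 9 of them, so that its place past 2-fold depended on the setting. Akt2 was also lower, at 61.3 and 63.7 FPKM in WT against 41.4 and 36.5 FPKM in R111A (log2 fold change -0.67, SE 0.13, adjusted p = 0.0030, and 0.054 without WT replicate 2). Of 11 AKT kinases and regulators tested, 5 were higher, 3 lower and 3 did not pass, with a median of 0.13. Of the higher ones, 1 reached the filter only through R111A, and their number ranged from 3 to 6 in the alternatives, that of the lower ones from 2 to 4.

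The 1 promoter window with a FOXO motif among the 9 genes is the first of 2 windows of Akt1, chr12:112674835-112675134 on the minus strand, and it is shown for that match, which is in capitals and begins 161 bases before the annotated start. The letters are those of the motif on the opposite strand.
Akt1: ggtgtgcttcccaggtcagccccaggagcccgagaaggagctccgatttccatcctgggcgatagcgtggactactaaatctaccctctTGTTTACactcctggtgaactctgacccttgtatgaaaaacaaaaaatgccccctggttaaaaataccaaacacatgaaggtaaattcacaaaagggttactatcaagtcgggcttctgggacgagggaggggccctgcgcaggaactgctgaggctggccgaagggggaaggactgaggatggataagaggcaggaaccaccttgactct
A match of letters is a description and does not show a bound site, and binding of FOXO factors was not measured.

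Foxo3 (NCBI gene 56484, chr10:42181845-42276695) encodes a FOXO transcription factor that AKT phosphorylates and keeps out of the nucleus. It was at 9.68 and 8.29 FPKM in WT against 15.8 and 12.2 FPKM in R111A. Both R111A libraries were above both WT libraries. The log2 fold change was 0.58 (SE 0.17, 95% interval 0.20 to 0.96, adjusted p = 0.018), the highest adjusted p of the 5 genes that passed. It did not pass without WT replicate 1 (adjusted p = 0.055), without WT replicate 2 (0.20), with no filter (0.062) or after rescaling to TPM (0.18). Foxo1, the main FOXO factor of T cells, was at 13.6 and 11.9 FPKM in WT against 28.4 and 19.7 FPKM in R111A, and passed in all 14 alternatives (log2 fold change 0.84, SE 0.18, adjusted p = 0.0051). Foxo4 was at 2.46 and 3.06 FPKM in WT against 4.32 and 5.37 FPKM in R111A (log2 fold change 0.64, adjusted p = 0.010, but 0.13 without WT replicate 1 and 0.070 after rescaling to TPM). Foxo6 reached at most 0.05 FPKM. So the 3 FOXO genes tested were all higher, and only Foxo1 passed under each setting.

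Of the 14 genes listed as FOXO-induced in resting T cells, 11 were higher (9 to 11 in the alternatives), 1 was lower and 2 did not pass, with a median log2 fold change of 1.43. Pik3ip1 is among them, and without it 10 of 13 were higher with a median of 1.39, against 21.2% and -0.12 for all genes tested. The list was chosen with earlier results of these data known, so this comparison is a description and no test of enrichment. Il7r, the receptor subunit for the survival cytokine IL-7, was at 4.58 and 3.77 FPKM in WT against 43.6 and 37.5 FPKM in R111A (log2 fold change 3.01, SE 0.15, adjusted p = 4.8e-06). S1pr1, the receptor by which T cells leave lymphoid organs, was at 6.67 and 4.61 FPKM in WT against 43.2 and 30.8 FPKM in R111A (log2 fold change 2.51, SE 0.21, adjusted p = 3.5e-05). Both genes were high in both R111A libraries, without overlap. Ccng2, a cyclin linked to cell cycle arrest, was at 4.86 and 5.76 FPKM in WT against 33.1 and 33.2 FPKM in R111A (log2 fold change 2.44, adjusted p = 8.8e-06). Cdkn1b, the cell cycle inhibitor p27, was at 6.72 and 8.81 FPKM in WT against 50.9 and 38.4 FPKM in R111A (log2 fold change 2.38, adjusted p = 2.7e-05). These 4 genes passed both thresholds in all 14 alternatives. The 1 lower gene was Sesn3, at 25.3 and 22.6 FPKM in WT against 17.5 and 17.4 FPKM in R111A (log2 fold change -0.44, adjusted p = 0.025), named after its values were seen as the exception in the list. That call was lost with median-of-ratios factors (adjusted p = 0.088), with quantile normalization (0.077), without WT replicate 1 (0.35) and without WT replicate 2 (0.15). Promoter windows were found for 11 of the 14 genes, and 2 of the 12 windows hold the FOXO motif, against 2.55% of the windows of genes tested. They belong to 1 gene that was higher and 1 that did not pass, and not to Il7r, Ccng2 or Cdkn1b.

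**Figure D3:**
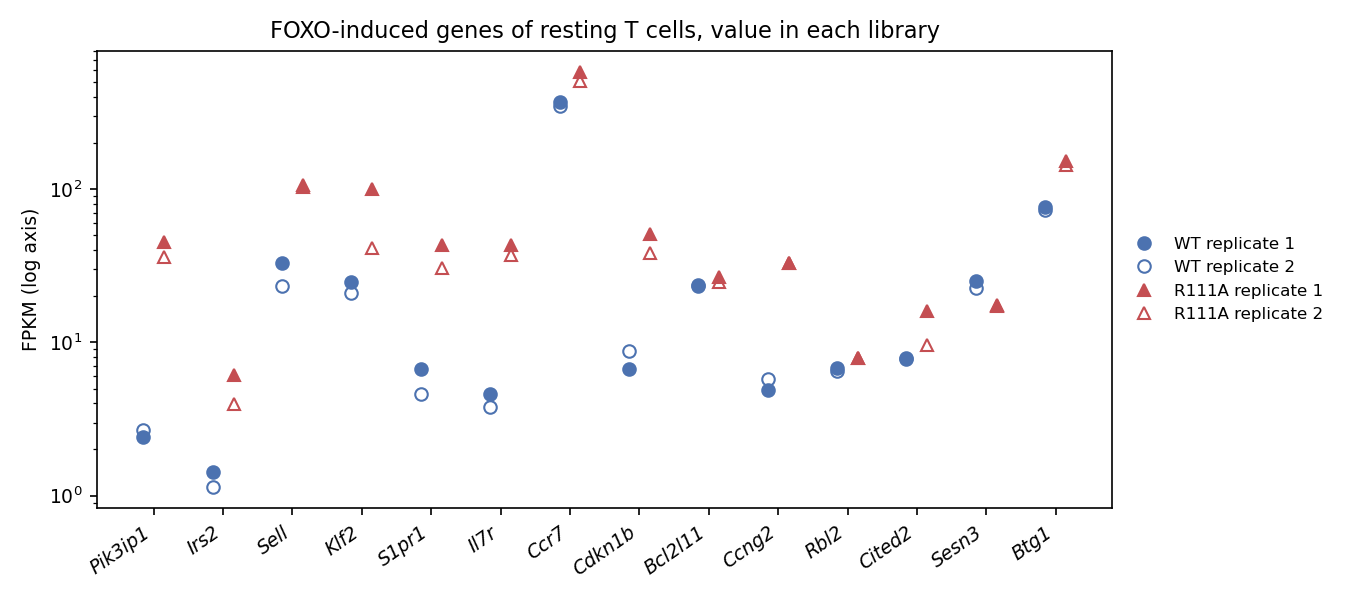
FPKM (log axis) of the 14 FOXO-induced genes of resting T cells in each library, with circles for WT and triangles for R111A, open symbols marking replicate 2. Il7r rose from 4.58 and 3.77 FPKM in WT to 43.6 and 37.5 FPKM in R111A, while Sesn3 lay lower in both R111A libraries.

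Tsc1 (NCBI gene 64930, chr2:28640993-28691172) encodes hamartin, which stabilises the complex that switches RHEB off. It was at 8.73 and 8.02 FPKM in WT against 8.76 and 9.63 FPKM in R111A. The groups did not overlap, though WT replicate 1 and R111A replicate 1 were almost equal. Its log2 fold change was 0.12 (SE 0.14, 95% interval -0.20 to 0.44, adjusted p = 0.50), and -0.18 after rescaling to TPM. Tsc2, the subunit that carries the GTPase-activating activity, was at 11.4 and 9.63 FPKM in WT against 8.20 and 6.47 FPKM in R111A. It passed as lower (log2 fold change -0.47, SE 0.16, adjusted p = 0.038), a call lost in 6 of 14 alternatives, among them leaving out WT replicate 1 (adjusted p = 0.35), WT replicate 2 (0.10) or R111A replicate 2 (0.083). Rheb, the GTPase that activates mTOR complex 1, was at 46.0 and 50 FPKM in WT against 88.0 and 102 FPKM in R111A. Both R111A libraries lay higher (log2 fold change 0.97, SE 0.14, adjusted p = 5.4e-04) and passed in all 14 alternatives. Of the 5 genes of the TSC complex and RHEB, 1 was higher and 2 were lower, each from 1 to 2 in the alternatives.

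Rictor (NCBI gene 78757, chr15:6708349-6800401) encodes the scaffold of mTOR complex 2, which phosphorylates AKT at its hydrophobic motif. It was at 8.06 and 6.55 FPKM in WT against 11.5 and 18.4 FPKM in R111A. Both R111A libraries were above both WT libraries, but R111A replicate 2 was far above replicate 1, a gap of 0.63 in log2. The log2 fold change was 0.91 (SE 0.21, 95% interval 0.42 to 1.40, adjusted p = 0.0072), and it ranged from 0.59 to 1.23 as each library was left out. With no filter it did not pass (adjusted p = 0.055). Rptor (NCBI gene 74370, chr11:119602905-119899591) encodes raptor, the scaffold that brings substrates to mTOR complex 1. It was at 12.4 and 11.6 FPKM in WT against 11.8 and 10.2 FPKM in R111A. The groups overlapped, with a log2 fold change of -0.11 (SE 0.14, 95% interval -0.44 to 0.21, adjusted p = 0.53). It was 0.01 with median-of-ratios factors and passed as lower after rescaling to TPM (-0.43, adjusted p = 0.032). The difference between the changes of Rictor and Rptor was not tested.

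Of 3 listed subunits shared by both mTOR complexes, Mtor and Mlst8 had small fold changes that did not pass, and the third was too low to be tested. Mtor, the kinase, was at 10.1 and 9.43 FPKM in WT against 10.6 and 8.71 FPKM in R111A, with overlapping groups (log2 fold change -0.02, 95% interval -0.37 to 0.32, adjusted p = 0.91). Mlst8 was at 14.1 and 14.1 FPKM in WT against 13.0 and 12.2 FPKM in R111A (log2 fold change -0.15, adjusted p = 0.38, but 0.018 after rescaling to TPM). Mapkap1, the SIN1 subunit of mTOR complex 2, was at 21.8 and 22.2 FPKM in WT against 22.7 and 23.5 FPKM in R111A (log2 fold change 0.07, adjusted p = 0.68). In mTOR complex 1, 0 of 4 genes tested passed in limma (0 to 1 higher and 0 to 2 lower in the alternatives). In mTOR complex 2, 2 of 5 did, of which 1 is Rictor and the other reached the filter only through the R111A libraries, which fixes its direction, and the alternatives gave 1 to 2 higher and 0 to 1 lower. Of 3 assembly cofactors of mTOR, 2 were lower (1 to 3 in the alternatives) and 0 higher, with a median of -0.64.

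Genes that sense nutrients and stress for mTOR complex 1 went both ways. Of 13 RAG GTPase and Ragulator genes, 5 were higher (3 to 6 in the alternatives) and 2 lower (0 to 5), 1 of these reaching the filter only through WT, with a median of 0.14. Flcn, which encodes folliculin, was at 12.8 and 15.4 FPKM in WT against 36.8 and 29.4 FPKM in R111A (log2 fold change 1.17, SE 0.16, adjusted p = 5.1e-04). GATOR and KICSTOR genes were pooled in 1 list, although some of their products restrain mTOR complex 1 and others favour it. Of 12 tested, 0 were higher and 5 (41.7%) lower, against 32.1% lower among all genes tested, with a median of -0.35. The lower ones became 8 after rescaling to TPM and without R111A replicate 2, and 3 with median-of-ratios factors, with quantile normalization and without either WT library, while the higher ones ranged from 0 to 1. Among 5 amino acid sensors 3 were higher (2 to 3 in the alternatives) and 1 lower (0 to 2), with a median of 0.75. The sestrin genes Sesn1 and Sesn2, whose products restrain mTOR complex 1 when leucine is scarce or cells are stressed, were both higher, while Sesn3, described above, is the 1 lower gene. Sesn1 was at 10.5 and 9.77 FPKM in WT against 24.1 and 24.4 FPKM in R111A (log2 fold change 1.18, adjusted p = 1.7e-04). Sesn2 was at 3.89 and 3.43 FPKM in WT against 12.9 and 9.60 FPKM in R111A (log2 fold change 1.38, adjusted p = 2.6e-04). Of 7 tested AMPK genes and stress inhibitors, 2 were higher and 2 lower, each from 1 to 3 in the alternatives, with a median of 0.02. Ddit4, encoding the stress inhibitor REDD1, was at 10.7 and 14.5 FPKM in WT against 38.9 and 36.5 FPKM in R111A, high in both R111A libraries (log2 fold change 1.52, SE 0.16, adjusted p = 1.3e-04).

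Of 13 tested substrates and outputs of mTOR complex 1, 5 were higher (2 to 6 in the alternatives) and 2 lower (1 to 6), with a median of -0.02. Eif4ebp2, encoding a repressor of cap-dependent translation that mTOR inactivates, was at 55.1 and 52.5 FPKM in WT against 35.1 and 18.8 FPKM in R111A. It was lower in both R111A libraries, which lay far apart, with a log2 fold change of -1.04 (SE 0.25, adjusted p = 0.0077) that ranged from -1.47 to -0.60 as each library was left out. It did not pass with no filter (adjusted p = 0.063) and was past 2-fold in 9 of 14 alternatives. Over all 17 lists, chosen with earlier results of these data known, 104 genes were tested, members aside. Of these, 35.6% were higher and 22.1% lower, against 21.2% and 32.1% of all genes tested, with a median of 0.13. The counts were 37 higher and 23 lower, and after rescaling to TPM they were 24 higher (23.1%) and 41 lower (39.4%), against 13.6% and 51.8% of all genes in that scaling. The lower genes numbered 14 with median-of-ratios factors, 14 without WT replicate 1 and 11 without WT replicate 2. Phosphorylation of AKT, FOXO factors or mTOR substrates was not measured, and mRNA levels do not give the activity of the pathway.

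**Figure D4:**
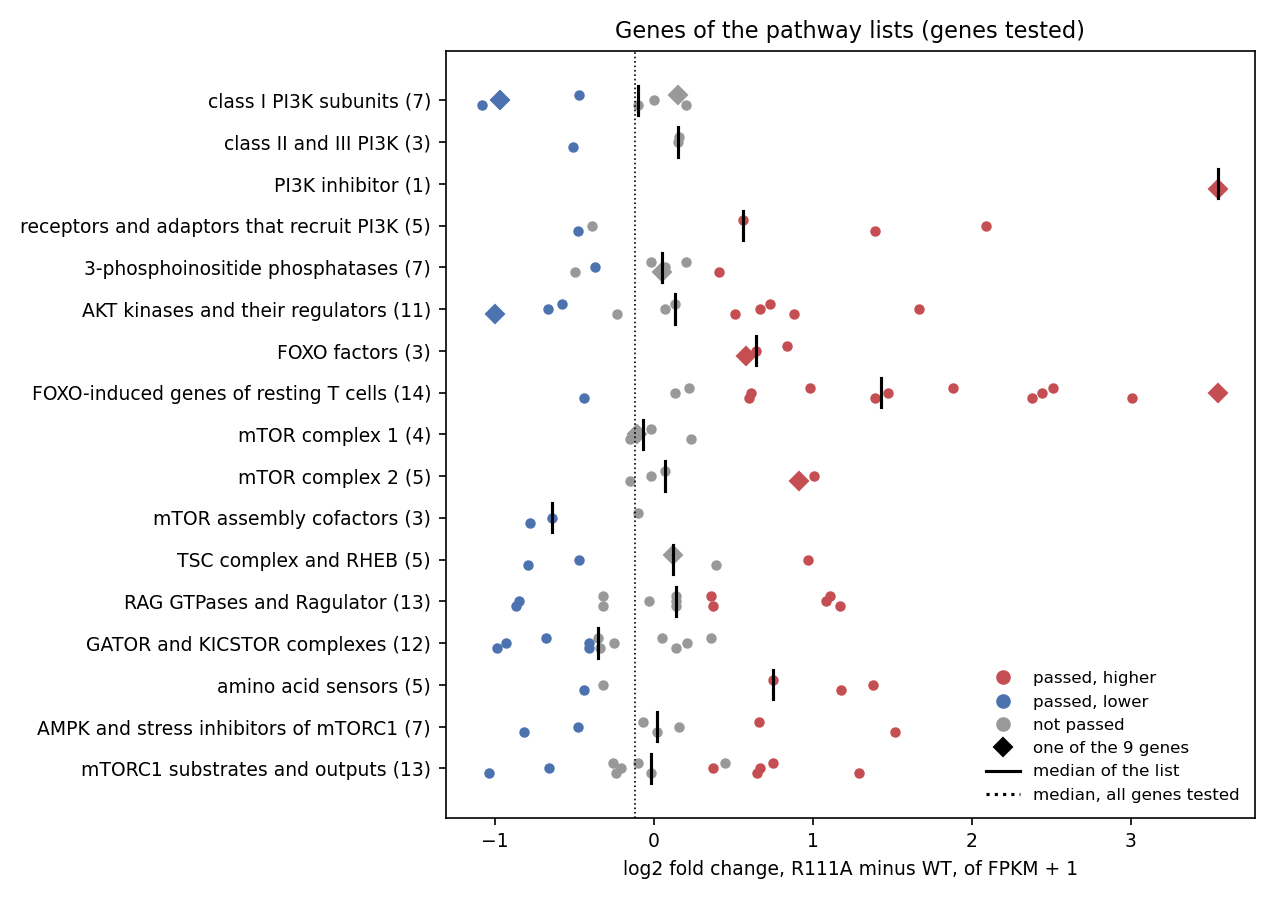
Log2 fold change, R111A minus WT, of each gene tested in the 17 pathway lists (number tested in brackets), with red for passed as higher, blue for passed as lower, grey for not passed, diamonds for the 9 regulators, black bars for list medians and the dotted line for the median of all genes. The FOXO-induced genes have a median of 1.43, while mTOR complex 1 stays at -0.07. After rescaling to TPM all fold changes shift down, and 24 pathway genes pass as higher and 41 as lower.

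Since Regnase-1 acts on stem-loops, the 3'UTRs of the 9 genes (GENCODE M21 transcripts, GRCm38) were folded in windows of 100 nt, an addition made after the values were seen, and searched for a stem of at least 3 base pairs with a GC pair and a loop of 3 to 6 nt that holds a pyrimidine, a purine and a pyrimidine in a row. Such elements are common. Of 9355 genes with a 3'UTR of at least 100 nt, 83.7% had 1 or more, with a median of 2.53 per kb and quartiles of 1.45 and 3.61. All 9 genes had at least 1. Per kb there were 1.14 in Akt1 and 2.04 in Pik3cd, which were lower in R111A, and 2.41 in Pik3ip1, 2.67 in Foxo3 and 1.44 in Rictor, which were higher. The 4 genes that did not pass had from 2.32 in Pik3r1 to 4.16 in Rptor. The element with the longest stem is shown for Pik3cd (chr4:149650375-149650401, minus strand, 11 base pairs), Akt1 (chr12:112654454-112654465, minus strand, 4 base pairs, its only element) and Pik3ip1 (chr11:3342849-3342866, plus strand, 7 base pairs), the genes with the largest changes in each direction, with the loop in capitals.
Pik3cd: ggggugaugucCUCAUgaugucauccc
Akt1: ccacACAUgugg
Pik3ip1: uacuuucCUAUgaaagua
These predicted shapes are a description of the transcripts, and the 4 libraries do not measure binding or cleavage by Regnase-1. In a separate assay, which was not used here, the study screened activated CD4+ T cells for mRNAs bound by Regnase-1, marked by RNA editing.

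For genes with small changes, the side of 0 depended on the scaling of the libraries and, for Inpp5d among the 9, also on which library was left out. Rescaling to TPM moved the median log2 fold change of all genes tested from -0.12 to -0.42, and median-of-ratios factors moved it to 0.01. Relative to the median of all genes, Pik3ip1 was at 3.67 as reported, 3.71 after rescaling to TPM and 3.66 with median-of-ratios factors. Akt1 was at -0.89, -0.92 and -0.88, Pik3cd at -0.85, -0.88 and -0.84, Rictor at 1.03 in each, and Foxo3 at 0.69, 0.69 and 0.70. The 4 genes that did not pass lay between 0.00 and 0.27 above the median as reported. Of all genes that passed, 39.8% were higher as reported, against 20.8% after rescaling to TPM and 51% with median-of-ratios factors.

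**Figure D5:**
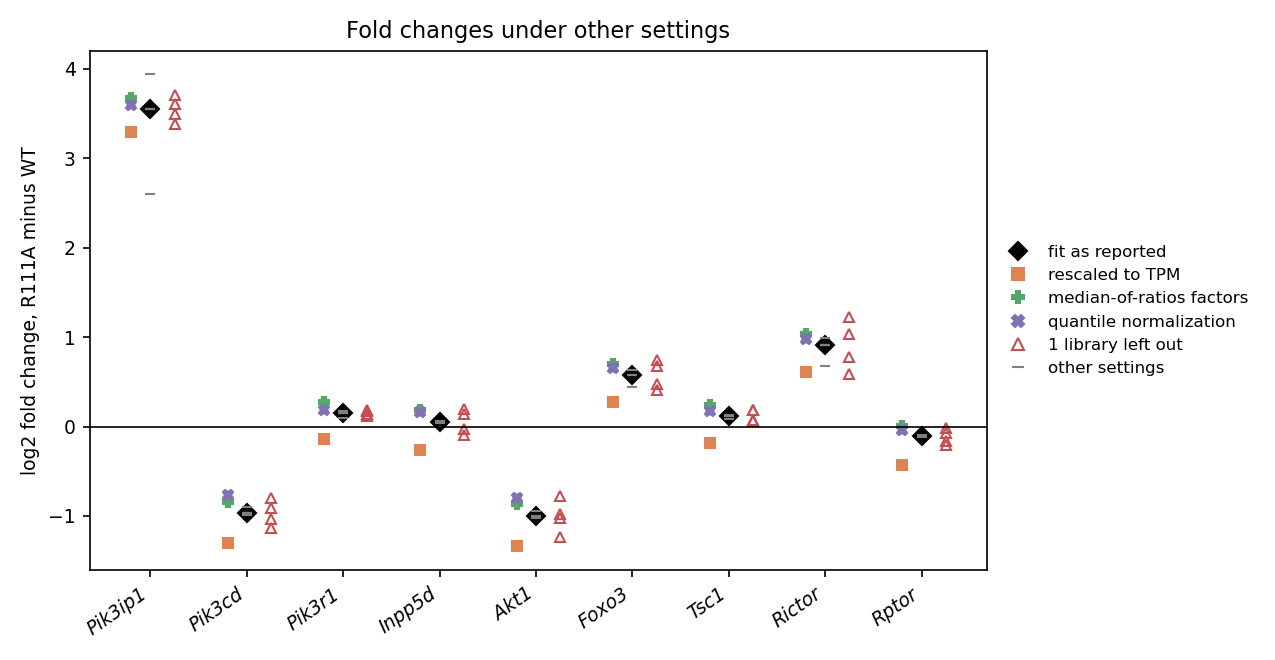
Log2 fold change, R111A minus WT, of the 9 regulators as reported (black diamonds) and under 14 alternatives, with filled symbols for the 3 other scalings, open red triangles for fits with 1 library left out and grey dashes for the others. Pik3ip1 stays between 2.60 and 3.94, and Pik3cd and Akt1 stay below 0, whereas Pik3r1, Inpp5d and Tsc1 turn negative after rescaling to TPM and Rptor turns positive, at 0.01, with median-of-ratios factors.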

How the data were processed

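RNA-seq was analysed for 2 WT and 2 R111A libraries of activated CD4+ T cells. The deposited FPKM values for 16142 genes are RSEM (1.2.28) estimates. They rest on polyA RNA, with reads cleaned of adaptors and poor bases and then mapped to mm10 by Bowtie2 (2.4.4). The authors called genes with DESeq2 on counts, which were not used here. In its place, limma on FPKM was used with the same thresholds. Depth is unknown, so no counting interval is given.

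The scale log2(FPKM + 1) was fitted in limma (3.58.1, R 4.3.3; lmFit and eBayes with a trend, two-sided, Benjamini-Hochberg adjustment over 9831 genes whose mean reached 1 FPKM), after the procedure was tested on simulated data. The 9 genes, 17 pathway lists and 8 marker lists were chosen with earlier results of these data known. Genes named beside the 9 were Zc3h12a, core paralogs and partners, and in each list at most 4 genes per direction past both thresholds with a mean of at least 5 FPKM. Results of 2 genes in the lists, counted there, are not reported here. No set test was run. Alternatives were a pseudocount of 0.1 or of 5 FPKM, the filter raised to 5 FPKM or dropped, 3 other scalings, the replicate number as a block, eBayes without trend or robust, and each library left out. Stem-loops were predicted with ViennaRNA (2.7.2). Other steps used python 3.11.15 with pandas 2.3.3 and numpy 2.4.6.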

Additional observations from a re-analysis of the deposited data

How the results depend on the processing

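Each of the 9 genes was refitted under 14 alternatives. Of the 126 values, 114 kept their direction and side of the threshold, 5 no longer passed, 1 newly passed and 6 changed sign. For the other named genes, Cblb aside, 324 of 360 did, 17 no longer passed, 6 newly passed and 13 changed sign. Of 476 list counts, 89 moved by over 1.5 times, 73 of them in counts under 5 as reported. Where the cause is not given by the alternative itself, the cause was not tested.

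With no filter, 1 of the 9 passed as higher, against 3, since 14448 genes entered the fit and its adjustment. Rescaling to TPM, after which all libraries have equal sums, moved the median of the 9 from 0.12 to -0.18, the genes that passed from 2088 higher and 3152 lower to 1335 and 5096, those also lower by 2-fold from 820 to 1749, and the pathway genes to 24 higher and 41 lower. With median-of-ratios factors, 14 pathway genes were lower, against 23. A pseudocount of 5 FPKM, which shrinks fold changes, left 386 genes higher and 402 lower by 2-fold, and a filter at 5 FPKM, with fewer genes tested, left 521 higher, against 838.

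Signs that turned all belonged to genes that did not pass. After rescaling to TPM the log2 fold changes were -0.14 for Pik3r1, -0.26 for Inpp5d, -0.18 for Tsc1, -0.24 for Pik3cg, -0.09 for Pik3r5 and -0.25 for Mapkap1. With median-of-ratios factors they were 0.01 for Rptor, 0.03 for Pik3ca and 0.10 for Mtor, and with quantile normalization 0.02 for Pik3ca, -0.09 for Pik3cg and 0.01 for Mtor.

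When each library was left out, the lone library of a group was assumed to vary like the other group. Genes that passed as lower then ranged from 1937 to 3790 and pathway genes that passed as lower from 11 to 28, the low values coming without a WT library. Log2 fold changes ranged from -0.09 to 0.20 for Inpp5d, -0.24 to 0.05 for Pik3ca, -0.04 to 0.05 for Pik3cg and -0.15 to 0.10 for Mtor.

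The replicate numbers pair nothing that the labels describe, and deviations of same-numbered libraries had a correlation of 0.111 over genes. With the replicate block, 2236 genes passed as higher and 3358 as lower, and 3 and 2 of the 9 genes did. Among the genes named, only the call of Cd28 changed with it.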
